A study of Mus musculus with 4 samples.

Results

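The transcripts of 10 genes that mark the club cell, the non-ciliated secretory cell of the airways, were measured in mouse lung tumours driven by oncogenic K-Ras with and without Mll4. They were 3 secretoglobins (Scgb1a1, Scgb3a1, Scgb3a2), the monooxygenase genes Cyp2f2, Por and Fmo2, the metabolic enzyme genes Cbr2, Aldh1a1 and Gsta3, and the haptoglobin gene Hp. Members were taken by gene symbol, and all 10 were found among the 24391 genes listed. RNA sequencing covered 4 samples of lung tumour, 2 labelled K-Ras and 2 labelled K-Ras Mll4-/-. The K-Ras mice carried K-RasLSL-G12D, an oncogenic allele that stays silent until Cre removes a stop cassette, and the other mice carried that allele together with floxed Mll4 (Mll4fl/fl). All tumours were digested to single cells, treated to lyse red cells and depleted of CD45-bearing leukocytes. The source of Cre and the age and sex of the mice are not given in the sources used here. Nothing states that the samples of a group came from different animals, so p-values measure only the spread between these samples, which may be technical.

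Club cells coat the small airways with secretoglobins, small secreted proteins, and they are the main site of cytochrome P450 metabolism in the rodent lung. Cyp2f2 oxidises inhaled aromatic compounds with electrons passed on by cytochrome P450 reductase, the product of Por, and the carbonyl reductase, aldehyde dehydrogenase and glutathione transferase enzymes process the reactive products. Several of these genes are not restricted to club cells. Por is widely expressed, and Hp is an acute phase gene of the liver that is also made by alveolar type 2 cells and neutrophils. These are bulk samples, so fewer cells of a type and less RNA per cell cannot be told apart.

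Between 26683033 and 36677987 reads per sample were assigned to genes. Kmt2d, the current symbol of the targeted gene Mll4, was at 395 and 526 CPM (counts expressed per library of equal, TMM-scaled depth) in the K-Ras samples and at 367 and 317 CPM in the K-Ras Mll4-/- samples (log2 fold change -0.43, SE 0.21, edgeR adjusted p = 0.302). A total per gene cannot show which exons were read, so the deletion rests on the labels. Lung epithelial identity was present in each sample, with Nkx2-1, a lung lineage transcription factor, at 45.7 to 64.9 CPM and Sftpc, surfactant protein C, at 5748 to 10750 CPM. The K-Ras samples stood apart from each other. The 20 ciliated cell markers summed to 287 CPM in K-Ras replicate 1 and 1523 CPM in K-Ras replicate 2, and 8 macrophage markers to 6861 and 651 CPM. The K-Ras Mll4-/- samples held 168 and 184 CPM of the ciliated markers and 4123 and 1047 CPM of the macrophage markers. Differences that K-Ras replicate 2 moves strongly are therefore given without it as well.

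The 10 club cell genes followed 3 patterns. Scgb1a1, Scgb3a1, Scgb3a2, Cyp2f2 and Aldh1a1 were highest in K-Ras replicate 2, and for all of them except Scgb3a1 K-Ras replicate 1 lay within, below or at most 1.02 times above the K-Ras Mll4-/- values. For Scgb3a1 it was 1.33 times the higher of those values. Gsta3, Fmo2 and Cbr2 were lower in both K-Ras Mll4-/- samples than in both K-Ras samples by at least 1.93 times between the nearest samples. Hp and Por were not lower on average in the K-Ras Mll4-/- samples. With the edgeR quasi-likelihood test none of the 10 genes passed an adjusted p under 0.05, where 0.0375% of the 16001 tested genes did (6 genes, all higher). At an unadjusted p under 0.05 there were 4 members (Scgb3a1, Cbr2, Gsta3 and Fmo2), all lower, against 10.4% of tested genes that were lower at that level. DESeq2 called 5 members lower (Scgb1a1, Scgb3a1, Cbr2, Gsta3, Fmo2) and 0 higher, against 5.27% of all genes called lower and 5.36% called higher. The edgeR likelihood ratio test called 4 lower (Scgb3a1, Cbr2, Gsta3, Fmo2), against 4.54% of genes, and limma-voom called 0 of the members and 0% of all genes. Without K-Ras replicate 1, the edgeR quasi-likelihood test called 5 members lower (Scgb1a1, Cyp2f2, Cbr2, Gsta3, Fmo2), against 2.54% of genes, and without K-Ras replicate 2 it called 0.

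**Figure D1:**
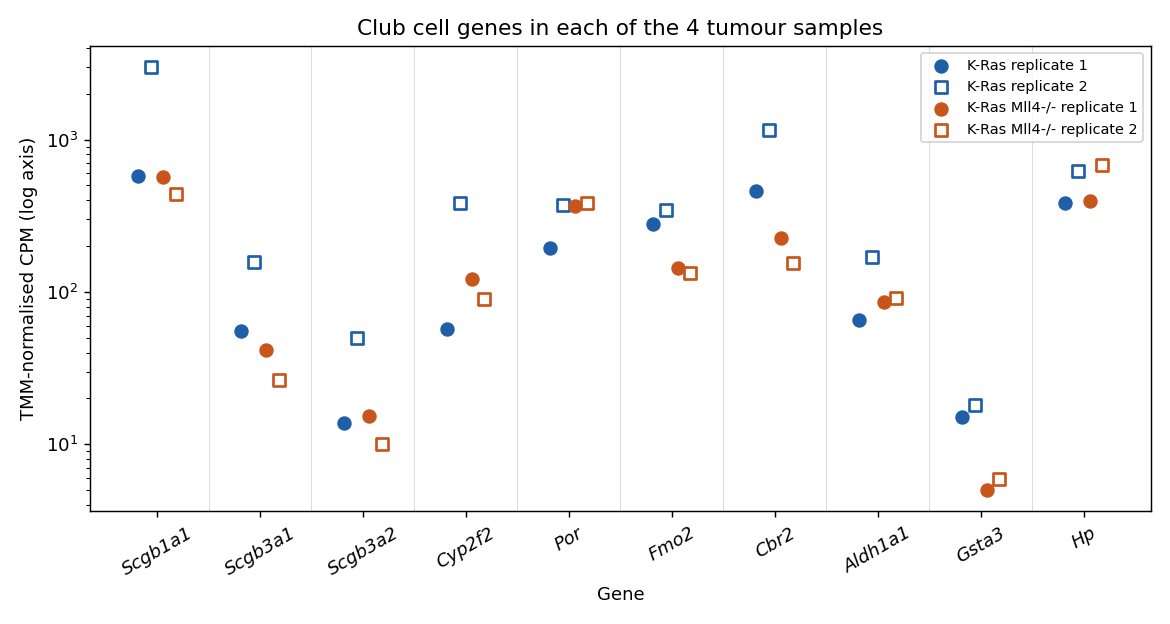
TMM-normalised CPM of each of the 10 club cell genes on a log axis, with 1 point per tumour sample (blue, K-Ras; orange, K-Ras Mll4-/-; circles, replicate 1; squares, replicate 2). The open blue square of K-Ras replicate 2 lies above the other samples for Scgb1a1 (2995 CPM) and Cyp2f2 (385 CPM), whereas for Gsta3 and Fmo2 both blue points lie above both orange points.

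Scgb1a1, which encodes the most abundant secretoglobin of the airways (also called CC10), was at 576 and 2995 CPM in K-Ras replicates 1 and 2. It was at 566 and 439 CPM in K-Ras Mll4-/- replicates 1 and 2. K-Ras replicate 2 was thus 5.20 times K-Ras replicate 1, while the lowest K-Ras value was 1.02 times the highest K-Ras Mll4-/- value, so the groups were separated by almost nothing. In K-Ras replicate 2 it was the gene with the 18th most reads, and in the other samples its rank lay between 147 and 286. The log2 fold change was -1.83 (SE 0.81, edgeR adjusted p = 0.273) over all samples and -0.21 without K-Ras replicate 2.

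Scgb3a1, a secretoglobin of the larger airways, was at 55.3 and 158 CPM in the K-Ras samples and 41.5 and 26.2 CPM in the K-Ras Mll4-/- samples. Its groups did not overlap, and the log2 fold change was -1.66 (SE 0.57, edgeR adjusted p = 0.214), or -0.72 without K-Ras replicate 2. Scgb3a2, a secretoglobin under the control of Nkx2-1 in the airways, was at 13.8 and 50.2 CPM in the K-Ras samples and 15.4 and 10.1 CPM in the K-Ras Mll4-/- samples. The groups overlapped for Scgb3a2, with K-Ras replicate 1 below K-Ras Mll4-/- replicate 1. Its log2 fold change was -1.33 over all samples (SE 0.66, edgeR adjusted p = 0.314) and -0.13 without K-Ras replicate 2. The proportion of Scgb3a2 to Scgb1a1 moved little across the samples, from 1.68 to 2.73 CPM per 100 CPM of Scgb1a1.

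Cyp2f2, the lung P450 of club cells, was at 57.2 and 385 CPM in the K-Ras samples and 121 and 90.1 CPM in the K-Ras Mll4-/- samples. Both K-Ras Mll4-/- values lay between the K-Ras values, which differed by 6.73 times. The within-group SD of log2 CPM was larger in the K-Ras samples for Cyp2f2 than for 99.4% of tested genes. The log2 fold change was -1.07 (SE 0.89, edgeR adjusted p = 0.517), and it was positive, at 0.87, without K-Ras replicate 2. Set against Scgb1a1 in the same sample, Cyp2f2 stood at 9.94 and 12.9 CPM per 100 CPM in the K-Ras samples and 21.3 and 20.5 in the K-Ras Mll4-/- samples. The ratios of Aldh1a1, Hp and Por to Scgb1a1 were likewise higher in both K-Ras Mll4-/- samples, as were those of 50.9% of all tested genes, so this is not particular to Cyp2f2. With 2 samples a group, the smallest two-sided p that an exact permutation test allows is 0.333.

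Por, the reductase that serves the microsomal P450 enzymes, was at 194 and 370 CPM in the K-Ras samples and 364 and 383 CPM in the K-Ras Mll4-/- samples. K-Ras replicate 1 was the low sample, and the other samples lay close together. Its log2 fold change was 0.41 (SE 0.34, edgeR adjusted p = 0.518), or 0.02 without K-Ras replicate 1.

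Fmo2, the main flavin-containing monooxygenase of the lung, was at 278 and 346 CPM in the K-Ras samples and 144 and 133 CPM in the K-Ras Mll4-/- samples. The lowest K-Ras value was 1.93 times the highest K-Ras Mll4-/- value, and the samples of each group lay close together. The group means were 312 ± 48.1 and 139 ± 7.80 CPM (SD, n = 2 each). Fmo2 had a log2 fold change of -1.17 (SE 0.17), not called by the edgeR quasi-likelihood test (adjusted p = 0.135) and called by DESeq2 (adjusted p = 1.6e-05). It stayed between -1.32 and -1.02 when either K-Ras sample was left out. Endothelial and fibroblast markers moved in the same direction. Their lists had median log2 fold changes of -0.79 and -0.76, and in each 8 of 10 markers were lower with no overlap, beside 28.5% of all tested genes. They summed to 7175 to 7335 and 1234 to 2580 CPM in the K-Ras samples against 3646 to 4641 and 902 to 931 CPM in the K-Ras Mll4-/- samples, with no marker at 0. Their part in the Fmo2 difference was not tested.

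Gsta3, an alpha-class glutathione transferase, was at 15.0 and 18.1 CPM in the K-Ras samples and 4.99 and 5.93 CPM in the K-Ras Mll4-/- samples. The lowest K-Ras value was 2.53 times the highest K-Ras Mll4-/- value, the widest gap of the 10 genes. The reads behind it were few, 131 to 654 per sample. The log2 fold change was -1.60 (SE 0.22, edgeR adjusted p = 0.135, DESeq2 adjusted p = 1.5e-05) and lay between -1.72 and -1.47 when either K-Ras sample was left out. Gsta3 belongs to a family with related copies, and reads that aligned to several places were not assigned to genes.

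Cbr2, a lung carbonyl reductase, was at 458 and 1165 CPM in the K-Ras samples and 228 and 155 CPM in the K-Ras Mll4-/- samples. It combined both patterns, since K-Ras replicate 2 was 2.54 times K-Ras replicate 1 and that lower K-Ras value was still 2.01 times the highest K-Ras Mll4-/- value. Its log2 fold change was the most negative of the 10, at -2.08 (SE 0.52, edgeR adjusted p = 0.170, DESeq2 adjusted p = 2.5e-04), and was -1.27 without K-Ras replicate 2.

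Aldh1a1, a retinaldehyde dehydrogenase, was at 65.4 and 169 CPM in the K-Ras samples and 85.5 and 91.6 CPM in the K-Ras Mll4-/- samples. The K-Ras Mll4-/- values lay between the K-Ras values, and the log2 fold change was -0.40 (SE 0.46, edgeR adjusted p = 0.641), turning to 0.42 without K-Ras replicate 2. Its close paralog Aldh1a7, from which some reads may not be separable, was at 16.2 and 48.3 CPM in the K-Ras samples and 33.3 and 27.9 CPM in the K-Ras Mll4-/- samples, the same order of samples at the top and the bottom.

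Hp, whose product binds free haemoglobin, was at 385 and 620 CPM in the K-Ras samples and 393 and 685 CPM in the K-Ras Mll4-/- samples. Each group held a low and a high sample at about the same levels. Its log2 fold change was 0.10 (SE 0.38, edgeR adjusted p = 0.897), and the sign depended on the sample left out. Markers of hepatocytes summed to 2.06 and 4.34 CPM in the K-Ras samples and 2.25 and 2.39 CPM in the K-Ras Mll4-/- samples, with Fgb at 0 reads throughout. Neutrophil markers summed to 245 and 93.6 CPM against 84.1 and 77.6 CPM, and alveolar type 2 markers to 23160 and 35790 CPM against 30300 and 30130 CPM. The part of these cells in the Hp level was not tested.

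**Figure D2:**
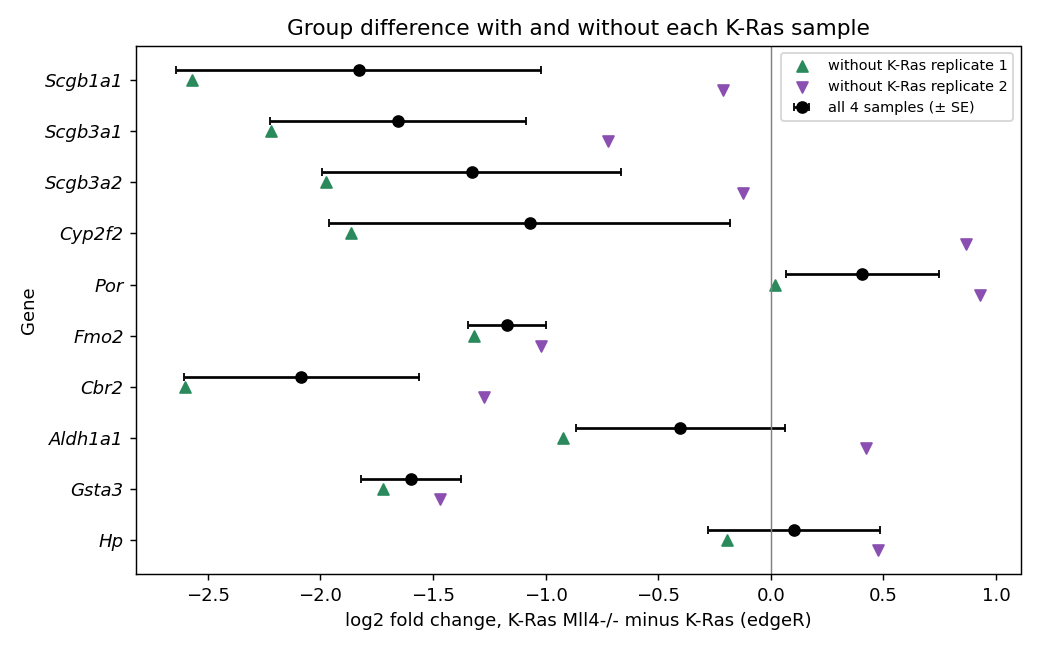
The log2 fold change of each gene (K-Ras Mll4-/- minus K-Ras, edgeR) over all 4 samples with its SE (black), and without K-Ras replicate 1 (green) or K-Ras replicate 2 (purple). For Gsta3 and Fmo2 the 3 values lie close together, and for Scgb1a1 they run from -2.57 to -0.21 and for Cyp2f2 from -1.87 to 0.87.

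Over the 10 genes together, 8 had a negative log2 fold change, as did 8190 of the 16001 tested genes. For 5 (Scgb1a1, Scgb3a1, Cbr2, Gsta3, Fmo2) both K-Ras Mll4-/- samples lay below both K-Ras samples, beside 28.5% of all tested genes. The median log2 fold change of the 10 was -1.25, beside -0.01 for all tested genes, and it was -0.17 without K-Ras replicate 2. Against K-Ras replicate 1 alone, 4 members (Cyp2f2, Aldh1a1, Hp and Por) were higher in both K-Ras Mll4-/- samples and 5 were lower in both. These counts lie near the shares of all tested genes, 42.4% higher and 41.3% lower. Summed CPM of the 10 genes was 2098 and 6275 in the K-Ras samples and 1963 and 2019 in the K-Ras Mll4-/- samples. The sum in K-Ras replicate 1 was thus close to both K-Ras Mll4-/- values.

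The spread within the K-Ras group was wide for most members. All 10 were higher in K-Ras replicate 2 than in K-Ras replicate 1, where 8351 of the 16001 tested genes were. By more than 2-fold, 6 (Scgb1a1, Scgb3a1, Scgb3a2, Cyp2f2, Cbr2, Aldh1a1) were higher, where 7.38% of tested genes were. Over the members, the SD of log2 CPM between the samples of a group had a median of 0.96 in K-Ras and 0.28 in K-Ras Mll4-/-, beside 0.20 and 0.14 for all tested genes. The ciliated markers differed the same way between the K-Ras samples. Of 20 ciliated markers, 20 were higher in K-Ras replicate 2 than in K-Ras replicate 1, and Foxj1, the regulator of motile cilia, was at 27.8 and 222 CPM there and at 12.8 and 16.5 CPM in the K-Ras Mll4-/- samples. The lowest K-Ras value of Foxj1 was 1.68 times its highest K-Ras Mll4-/- value, against 1.02 times for Scgb1a1. With no overlap, 19 of the 20 ciliated markers were lower in the K-Ras Mll4-/- samples, beside 28.5% of all tested genes. DESeq2 called 16 of them lower, beside 5.27% of all genes. Their median log2 fold change was -2.37, or -0.81 without K-Ras replicate 2, and the marker Mcidas had 0 reads in K-Ras Mll4-/- replicate 1. The part of airway tissue content in the secretoglobin and Cyp2f2 differences was not tested.

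**Figure D3:**
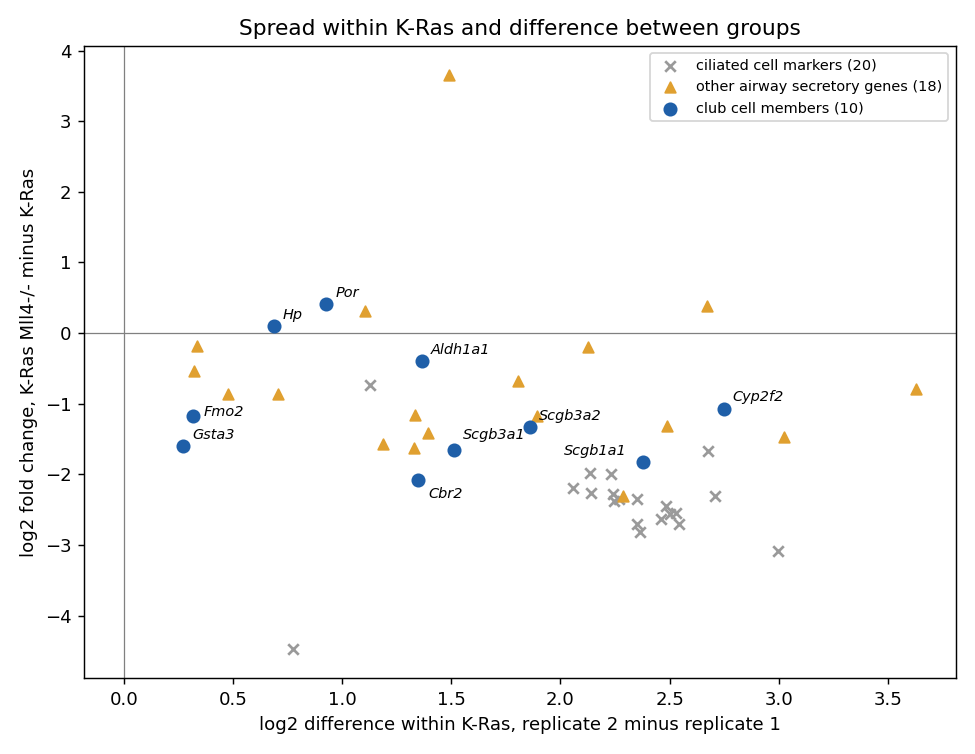
Each point is a gene, with the log2 difference between the K-Ras samples (replicate 2 minus replicate 1, CPM plus 0.1) on the horizontal axis and the log2 fold change between the groups on the vertical axis, for the 10 members (blue), 20 ciliated markers (grey) and 18 other airway secretory genes (yellow). Fmo2 and Gsta3 are low on the vertical axis with little difference between the K-Ras samples, and Scgb1a1 lies near the ciliated markers.

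Levels were compared between members as CPM per kilobase of the longest coding transcript in GENCODE M21, which may differ from the annotation that was counted. Scgb1a1 was the most abundant member per length in every sample, from 923 to 6292 CPM per kilobase. Cbr2 followed in the K-Ras samples, at 413 and 1049 CPM per kilobase. In the K-Ras Mll4-/- samples Hp, at 293 and 509 CPM per kilobase, stood above Cbr2, at 205 and 140. Gsta3 was the least abundant member in every sample, from 3.42 to 12.4 CPM per kilobase.

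By the root mean square difference of centred log2 CPM over the 4 samples, genes with a profile close to that of Scgb1a1 were Efcab12 (0.09), Hrk (0.10), Acox2 (0.12) and Ttc25 (0.13). Each of these was highest in K-Ras replicate 2, as with Acox2 at 5.92 and 26.3 CPM in the K-Ras samples and 4.61 and 3.94 CPM in the K-Ras Mll4-/- samples. Hrk had only 6 to 64 reads per sample. Of the members, Scgb3a2 came closest to Scgb1a1 at 0.26, followed by Scgb3a1 at 0.33, at ranks 63 and 120 among all tested genes. Many genes outside the list were thus closer. Hp and Por were farthest of the members, at 1.04 and 1.08.

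The promoters of 4 enzyme genes are shown because they represent the patterns above: Cyp2f2 was high in K-Ras replicate 2, Gsta3 and Fmo2 were lower in both K-Ras Mll4-/- samples, and Cbr2 did both. RefSeq (GRCm38.p6) gave a window from 250 bases before to 50 bases after the start for 7 of the 10 members, not for Scgb1a1, Scgb3a2 and Hp. The windows lie at chr7:27119705-27120004 (+ strand), chr11:120731972-120732271 (- strand), chr1:21240335-21240634 (+ strand) and chr1:162898709-162899008 (- strand), the last being the first of 2 windows. Each is written 5′ to 3′, and capitals mark matches to the motifs searched on both strands.
Cyp2f2 promoter: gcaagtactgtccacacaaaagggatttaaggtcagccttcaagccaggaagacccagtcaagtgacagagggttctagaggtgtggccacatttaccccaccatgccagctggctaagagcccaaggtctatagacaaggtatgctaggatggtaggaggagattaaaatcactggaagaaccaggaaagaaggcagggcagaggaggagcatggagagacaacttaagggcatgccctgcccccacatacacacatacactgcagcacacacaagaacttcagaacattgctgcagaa
Cbr2 promoter: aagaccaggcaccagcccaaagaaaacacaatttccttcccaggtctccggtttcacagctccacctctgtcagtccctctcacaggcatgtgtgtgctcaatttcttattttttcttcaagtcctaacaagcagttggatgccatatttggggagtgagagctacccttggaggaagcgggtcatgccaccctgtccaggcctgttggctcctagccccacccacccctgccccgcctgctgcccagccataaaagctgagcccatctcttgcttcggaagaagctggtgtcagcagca
Gsta3 promoter: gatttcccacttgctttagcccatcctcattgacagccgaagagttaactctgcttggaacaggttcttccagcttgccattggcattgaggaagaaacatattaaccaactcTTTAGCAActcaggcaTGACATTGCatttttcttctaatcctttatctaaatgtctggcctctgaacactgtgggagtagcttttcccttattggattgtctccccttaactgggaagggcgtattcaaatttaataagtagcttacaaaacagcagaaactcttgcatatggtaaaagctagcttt
Fmo2 promoter: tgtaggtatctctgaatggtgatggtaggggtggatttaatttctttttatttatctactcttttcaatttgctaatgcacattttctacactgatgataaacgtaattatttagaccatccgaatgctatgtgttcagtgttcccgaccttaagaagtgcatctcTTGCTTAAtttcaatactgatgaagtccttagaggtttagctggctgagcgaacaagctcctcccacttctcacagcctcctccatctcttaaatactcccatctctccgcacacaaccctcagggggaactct
The motifs were the TATA box (TATAAA), FOXA (TGTTTAC or TATTTAC), NKX2-1 (CTCAAG), C/EBP (TTGCNNAA) and the antioxidant response element bound by NRF2 (TGACNNNGC). They were found in 13.6%, 6.54%, 15.9%, 10.8% and 12.4% of the 32851 RefSeq windows of this length. Gsta3 held a C/EBP match that begins 137 bases before the start and an antioxidant response element match that begins 121 bases before it, and the matches do not overlap. The Fmo2 window shown held a C/EBP match that begins 84 bases before the start, and its second window, not shown, held a C/EBP match at 69 and a FOXA match at 28 bases before that window's start. The Cyp2f2 and Cbr2 windows held 0 matches. A match is a description of the letters only.

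Other airway secretory genes were examined next. Of 20 listed, 18 were tested (Bpifb9b and Upk3a were too low), and the edgeR quasi-likelihood test called 0. Both K-Ras Mll4-/- samples were below both K-Ras samples for 8 and above them for 1, beside 28.5% and 29.9% of tested genes. All 18 were higher in K-Ras replicate 2 than in K-Ras replicate 1, beside 8351 of the 16001 tested genes. Of the 18, 14 were higher by more than 2-fold, beside 7.38% of tested genes. The median log2 fold change was -0.86, and 0.02 without K-Ras replicate 2. Gabrp, a GABA receptor subunit of airway epithelium, was at 12.2 and 60.0 CPM in the K-Ras samples and 7.96 and 6.67 CPM in the K-Ras Mll4-/- samples (log2 fold change -2.31, SE 0.79, edgeR adjusted p = 0.214, and -0.76 without K-Ras replicate 2). Pigr, the receptor that carries IgA across epithelium, was at 42.4 and 107 CPM against 30.8 and 17.4 CPM (log2 fold change -1.63, SE 0.54, edgeR adjusted p = 0.206, and -0.83 without K-Ras replicate 2). Tff2, a trefoil peptide of mucous cells, went the other way, at 0.98 and 2.93 CPM in the K-Ras samples and 9.83 and 40.1 CPM in the K-Ras Mll4-/- samples (log2 fold change 3.66, SE 0.92, edgeR adjusted p = 0.171).

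Other detoxification genes did not share a direction. Of 36 listed, 34 were tested (Akr1c18 and Gsta2 were too low), and the edgeR quasi-likelihood test called 0. The K-Ras Mll4-/- samples lay below both K-Ras samples for 12 genes and above both for 12, beside 28.5% and 29.9% of all tested genes. The median log2 fold change was -0.23, and 0.14 without K-Ras replicate 2. DESeq2 called 4 lower and 7 higher, beside 5.27% and 5.36% of all genes. By the largest log2 fold change the list was led by Aldh1a3, a retinaldehyde dehydrogenase related to Aldh1a1. Aldh1a3 was at 23.8 and 5.51 CPM in the K-Ras samples and 175 and 258 CPM in the K-Ras Mll4-/- samples (log2 fold change 3.89, SE 0.78, edgeR adjusted p = 0.153). Cyp1b1, a P450 induced through the aryl hydrocarbon receptor, was at 9.32 and 9.55 CPM against 45.4 and 131 CPM (log2 fold change 3.23, SE 0.56, edgeR adjusted p = 0.147). Cyp2a5, a P450 of airway epithelium, was at 3.14 and 36.5 CPM against 5.33 and 4.10 CPM (log2 fold change -2.08, SE 1.14, edgeR adjusted p = 0.347). Like Cyp2f2 it was high only in K-Ras replicate 2, and without that sample its log2 fold change turned to 0.57.

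Relatives of Fmo2 and Gsta3, named after their values were seen, separated the groups in different directions. Fmo1, a paralog of Fmo2, was at 141 and 140 CPM in the K-Ras samples and 80.0 and 75.8 CPM in the K-Ras Mll4-/- samples (log2 fold change -0.85, SE 0.12, edgeR adjusted p = 0.135). Of 7 other glutathione transferase genes tested, 5 were higher with no overlap (Gsta4, Gsto1, Gstp1, Gstm5 and Mgst1), beside 29.9% of all tested genes. The differences of Gstp1, Gstm5 and Mgst1 were small (log2 fold changes 0.48, 0.39 and 0.40). Lower like Gsta3 was 1 gene (Gstm2, log2 fold change -0.55), beside 28.5% of all tested genes, and Gstm1 overlapped. Gsta4 was at 23.5 and 45.8 CPM in the K-Ras samples and 83.9 and 123 CPM in the K-Ras Mll4-/- samples (log2 fold change 1.58, SE 0.39, edgeR adjusted p = 0.170). Gsto1 was at 59.2 and 100 CPM against 253 and 305 CPM (log2 fold change 1.81, SE 0.30, edgeR adjusted p = 0.147).

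**Figure D4:**
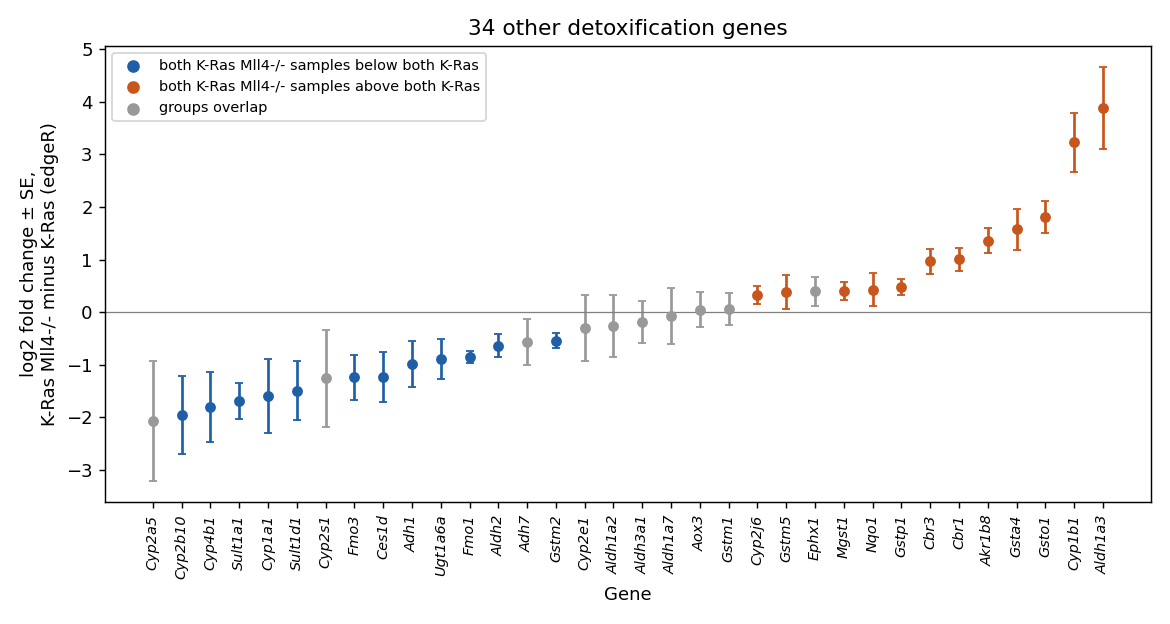
The log2 fold change (K-Ras Mll4-/- minus K-Ras, edgeR) with its SE for 34 other detoxification genes in order of value, coloured by whether both K-Ras Mll4-/- samples lay below (blue) or above (orange) both K-Ras samples. The list divides evenly into 12 blue and 12 orange genes, with Aldh1a3 and Cyp1b1 at the upper end.

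Transcription factors that act in airway epithelium, listed together with the receptor gene Notch2, were not lower as a list. Of 17 genes tested, 0 were called by the edgeR quasi-likelihood test. With no overlap, 3 were lower and 6, Notch2 among them, were higher, beside 28.5% and 29.9% of all tested genes. The median log2 fold change was 0.27, and 0.67 without K-Ras replicate 2. Nkx2-1, at 45.7 and 62.7 CPM in the K-Ras samples and 47.8 and 64.9 CPM in the K-Ras Mll4-/- samples, was nearly level between the groups (log2 fold change 0.06, SE 0.24, edgeR adjusted p = 0.913). Klf5, an epithelial Krüppel-like factor, was at 19.6 and 40.7 CPM against 66.2 and 112 CPM (log2 fold change 1.56, SE 0.45, edgeR adjusted p = 0.186). Elf3, an epithelial ETS factor, was at 30.1 and 53.7 CPM against 77.2 and 94.9 CPM (log2 fold change 1.04, SE 0.32, edgeR adjusted p = 0.192). Spdef, the goblet cell factor, went the other way, at 0.92 and 1.41 CPM against 0.53 and 0.12 CPM (log2 fold change -1.85, SE 0.77, edgeR adjusted p = 0.254). It had only 4 to 51 reads per sample.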

How the data were processed

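The authors deposited 1 file per sample with whole-number read counts for each gene symbol, not normalised. The submitters' processing notes name CASAVA 1.4, STAR, HTSeq and the build mm9, with no role or order; the annotation and strand setting are not given in the sources used here. Closing lines that tally reads given to no gene held 60.1% to 65.6% of the reads or alignments counted and were left out of library sizes and tests. Reads with several alignments were among them, at 31.5% to 36.7%.

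Counts were fitted over all 4 samples with edgeR 4.0.16 in R 4.3.3: default count filter, TMM scaling, robust quasi-likelihood test, Benjamini-Hochberg adjustment over 16001 genes, called at an adjusted p under 0.05. The SE is the log2 fold change divided by the root of the F statistic. All 10 members passed the filter. The floor of 3 reads equals 0.0818 to 0.112 CPM and covers counting error only. DESeq2 1.42.0, limma 3.58.1 (voom) and other alternatives are in the closing section. The scripts were tested on simulated counts with less spread between samples than these data, which checks the code and not the calls made here. Members and lists were chosen with earlier results of these data known. Named genes were the members, Kmt2d, the 3 genes of a list that differed most on the log2 scale, and the 5 genes nearest to Scgb1a1 in profile, of which 1 is not reported here. Marker lists are given mainly by sums and counts. Nkx2-1, Sftpc, Aldh1a7, Fmo1, the glutathione transferases and undetected markers were named besides, after their values were seen. Promoters come from RefSeq (GRCm38.p6); no other coordinates are printed because the builds differ.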

Additional observations from a re-analysis of the deposited data

How the results depend on the processing

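Of 130 values (10 members under 13 alternatives), 112 kept their sign and their side of the threshold, 14 became called and 4 reversed: Cyp2f2 (0.87) and Aldh1a1 (0.42) without K-Ras replicate 2, and Hp without K-Ras replicate 1 (-0.20) or K-Ras Mll4-/- replicate 2 (-0.36). Over the fits that left out single samples, the log2 fold change ran from -1.87 to 0.87 for Cyp2f2, from -0.92 to 0.42 for Aldh1a1 and from -0.36 to 0.47 for Hp. Members called were 0 under every scaling, count filter, the replicate block, limma-voom and a threshold of 0.1, 5 with DESeq2, 4 with the likelihood ratio test, and 0 to 5 when single samples were left out. The 5 were called without K-Ras replicate 1, where K-Ras replicate 2 stands alone and is assumed to vary like the K-Ras Mll4-/- samples. Members without overlap numbered 5 to 9 when single samples were left out, where 72.5% to 83.7% of all tested genes did not overlap. The 9 (without K-Ras replicate 2) were 5 lower and 4 higher, beside 41.3% and 42.4% of all tested genes. The median log2 fold change of the members ran from -1.79 to -0.17. Over all genes the 6 calls became 44 with no count filter, 217 with the replicate block, 1632 with DESeq2, 0 with limma-voom, 1503 with the likelihood ratio test, 22 at a threshold of 0.1, and 0 to 528 when single samples were left out. The cause was not tested. The titles number the replicates 1 and 2 in both groups without saying what a number shares. Deviations of same-numbered samples correlated at 0.21 across genes, and with only 2 pairs the numbers were not taken to pair the samples. With the replicate block, 18 of the 217 called genes were lower, 199 were higher and 0 were members. All members lay above the floor of 3 reads, with at least 131 reads in every sample, the fewest for Gsta3.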

Other observations

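Basal cell markers label the stem cells of the larger airways. They summed to 9.26 and 13.6 CPM in the K-Ras samples and to 36.6 and 134 CPM in the K-Ras Mll4-/- samples. Most of the sum in the K-Ras Mll4-/- samples came from Trp63 and Krt14. Of 7 markers tested, 0 were called by the edgeR quasi-likelihood test. A positive log2 fold change was seen for 5 and a negative for 2, beside 7811 and 8190 of the 16001 tested genes. With no overlap between the groups, 3 were higher and 1 lower (Dapl1, log2 fold change -0.35), beside 29.9% and 28.5% of tested genes. Trp63, the basal lineage factor p63, was at 1.60 and 4.48 CPM in the K-Ras samples and 18.5 and 88.6 CPM in the K-Ras Mll4-/- samples (log2 fold change 4.13, SE 0.99, edgeR adjusted p = 0.166). Krt14, a basal keratin, had 0 and 2 reads in the K-Ras samples and 185 and 1119 reads (7.05 and 34.7 CPM) in the K-Ras Mll4-/- samples. Krt5, its usual partner, was at 0.26 and 0.80 CPM against 2.06 and 0.62 CPM, and its groups overlapped.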
